A study of Gallus gallus with 4 samples.

Results

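The 5 genes described here, NOG, MSX2, TGFB2, BMP4 and BMP7, belong to the bone morphogenetic protein (BMP) and transforming growth factor beta (TGF-beta) pathway. They were chosen by name, with earlier results of these data known. A count of members set beside the share of all probes is therefore no test of the set. Each was looked up in the gene names and descriptions of the probes in the deposited spot tables. Each of the 5 had exactly 1 probe, so they rest on 5 of 42034 gene probes, and are 5 of the 6645 genes to which a symbol could be given. A further 5 probes that mention MSX2 belong to SPEN, whose description names MSX2 as a binding partner, and they were left out. The probe named NOG carries that name in the gene name column only, and its description is that of an expressed sequence tag, so its identity rests on the name in the file.

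RNA came from the optic tectum of chick embryos, a dorsal part of the midbrain to which retinal axons project. The tecta were cut along 1 axis, each sample was a pool of 60 pieces, and pools of opposite sides were hybridised in the Cy5 and Cy3 channels of a two-colour array. The 4 arrays compared posterior with anterior tectum at HH35 and HH37 (stages of the Hamburger-Hamilton series), and 2 mediolateral pools with each other at HH30 and HH35. All groups were embryos incubated under the same conditions with no treatment, and the labels give no strain. Each comparison had 1 array, without replicate or dye swap, so a single ratio has no replicate to be checked against.

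Ratios are log2 of Cy5 over Cy3 after background correction and loess normalisation. For the anteroposterior arrays, posterior is over anterior. On the mediolateral arrays the dye labels place the medial pool in Cy5, but the authors' deposited table of medial over lateral ratios runs with Cy3 over Cy5. The side is therefore not settled, and the mediolateral pools are called the Cy5 pool and the Cy3 pool. A pool holds many cell types, and fewer cells of a type cannot be told apart from less RNA per cell.

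BMPs and TGF-betas are secreted dimers that bind paired serine/threonine kinase receptors, which phosphorylate SMAD proteins that enter the nucleus and regulate transcription. BMP ligands made by the roof plate and the dorsal ectoderm pattern the dorsal neural tube. Secreted antagonists such as noggin bind BMPs and keep them from their receptors, and MSX homeobox genes are among the targets of BMP signalling. TGF-beta ligands act through largely separate receptors, which phosphorylate other SMADs than the BMP receptors do.

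Across the arrays, 63.2% to 79.5% of gene probes had a channel well above background, meaning that its mean signal exceeded the local background by more than 2.6 SD of that background. Probes that met this limit are called measured. Repeated control spots on an array varied with a median SD of 0.09 to 0.14 in log2 ratio, which covers the spread within an array only. Levels did not pair by stage. The brightness of 23411 probes correlated with r = 0.79 between the 2 arrays at HH35, against 0.92 for the mediolateral array at HH30 with the anteroposterior array at HH35, and 0.93 for the mediolateral array at HH35 with the anteroposterior array at HH37. Between the 2 arrays labelled HH35, 33.4% of probes were at least 2-fold apart in level. Stage and array cannot be told apart in a level, so levels are given per array and the results rest on ratios within an array. The ratios of 23446 probes also correlated most between the anteroposterior array at HH37 and the mediolateral array at HH35 (r = 0.63), against 0.44 between the anteroposterior and 0.25 between the mediolateral arrays. The stages are those of the labels, and every difference between stages below rests on them.

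TGFB2, a TGF-beta ligand, was lower in the Cy5 pool than in the Cy3 pool on all 4 arrays, which on the anteroposterior arrays means lower in the posterior than in the anterior pool. On the anteroposterior array at HH35 its spot intensity was 13207 in the posterior pool and 20401 in the anterior pool, and at HH37 it was 1369 in the posterior pool and 3238 in the anterior pool. On the mediolateral array at HH30 it was 5509 for the Cy5 pool against 7675 for the Cy3 pool, and at HH35 it was 2688 for the Cy5 pool against 4403 for the Cy3 pool. Both channels of every array were well above background for this probe, and no pixel was saturated.

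The log2 ratios of TGFB2 were -0.63 and -1.02 on the anteroposterior arrays at HH35 and HH37, so that the anterior pool was 1.55-fold and 2.03-fold higher. On the mediolateral arrays at HH30 and HH35 they were -0.60 and -0.86, which is 1.52-fold and 1.82-fold higher in the Cy3 pool. Each ratio is several times the spread of control spots on its array. On the mediolateral array at HH35 the ratio of TGFB2 ranked 21 from the lowest among 29783 measured probes. On the mediolateral array at HH30 its ratio ranked 311 from the lowest, on the anteroposterior array at HH37 437 and at HH35 1638. Its ratios furthest from 0, at HH37 and on the mediolateral array at HH35, fall on the pair of arrays whose ratios correlated most (r = 0.63). They are thus not taken as independent of each other.

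In the limma fit over all 31760 probes measured on at least 2 arrays, with both stages of an axis as its observations, TGFB2 had an anteroposterior mean of -0.82 ± 0.16 (SE, adjusted p = 0.0261). It was the 1 member of 5 that passed the threshold of 0.05 in that fit, which called 2.97% of all probes, 0.164% as higher in the posterior pool and 2.81% as higher in the anterior pool. Before adjustment 23.5% of probes had p under 0.05. The limma mean of TGFB2 on the mediolateral arrays was -0.73 ± 0.16 (adjusted p = 0.453). No member passed in the mediolateral limma fit, which called 0.0063% of probes. Before adjustment 2 of 5 members, NOG and TGFB2, had p under 0.05 there, as did 7.61% of all probes.

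The means of TGFB2 on the 2 axes differed by -0.09 ± 0.22 (limma, adjusted p = 0.963). Without a dye swap, a dye effect of this probe cannot be told apart from a difference between the pools. Among 23446 probes measured on all 4 arrays, 16.8% were lower in Cy5 on each of them. The anteroposterior call of TGFB2 held in 9 of 12 alternative settings, and the adjusted p in limma ranged from 0.0133 to 0.251. It was lost with plain background subtraction at -0.76 (adjusted p = 0.200 in limma), in the series' value table at -0.78 (adjusted p = 0.251 in limma) and without the anteroposterior array at HH37 at -0.63 (adjusted p = 0.113 in limma). The sign stayed negative in all 12. The mean itself, -0.82, cannot change with the filter, the probes or the variance model, or on leaving out a mediolateral array. In those settings the sign was fixed in advance. Leaving out 1 anteroposterior array gives the ratio of the other.

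**Figure D1:**
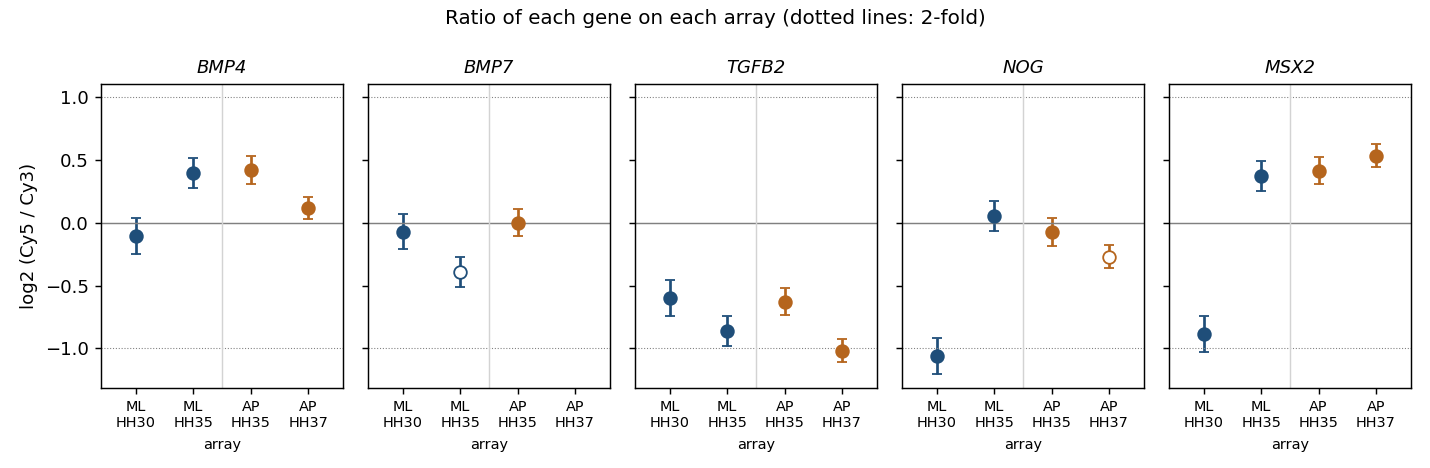
Log2 ratio of Cy5 over Cy3 (y axis) of each of the 5 genes on each of the 4 arrays (x axis), with bars of ±1 SD of repeated control spots on that array and open symbols where 1 channel was not well above background. BMP7 is left out on the anteroposterior array at HH37, where neither channel was well above background. TGFB2 lies below 0 on all 4 arrays, from -0.60 to -1.02, while NOG at -1.06 and MSX2 at -0.88 are low on the mediolateral array at HH30 only.

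NOG, which encodes the BMP antagonist noggin, was lower in the Cy5 pool than in the Cy3 pool of the mediolateral array at HH30. Its intensity there was 856 for the Cy5 pool against 1786 for the Cy3 pool. At HH35 the mediolateral pools were nearly even, with 253 for the Cy5 pool against 247 for the Cy3 pool. The log2 ratio was -1.06 at HH30, 2.09-fold higher in the Cy3 pool, and 0.05 at HH35.

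At HH30 the ratio of NOG ranked 13 from the lowest among 29467 measured probes. NOG was the 1 member of 5 past 2-fold on that array, where 0.326% of measured probes were, with 0.0611% of measured probes lower in Cy5 and past it. The mean over the 2 mediolateral arrays was -0.50 ± 0.21 (limma, adjusted p = 0.643), a mean of 2 unlike values. The SE comes from a variance shared by both axes and drawn towards that of all probes. It is not the spread of these 2 values.

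Along the anteroposterior axis NOG had intensities of 551 in the posterior pool and 735 in the anterior pool at HH35. At HH37 it had 79 in the posterior pool, which was not well above background, and 100 in the anterior pool. Its log2 ratio at HH35, -0.07, was within the spread of control spots but was -0.34 with median centring. At HH37, with 1 dim channel, the bound was 1.05-fold towards the anterior pool, which is also within the spread of control spots. The log2 ratio of NOG at HH37 was -0.27, but -0.57 with plain subtraction and -0.73 in the series' value table. The limma mean of -0.17 ± 0.21 did not pass (adjusted p = 0.664).

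MSX2, a homeobox transcription factor induced by BMPs in several embryonic tissues, had ratios of opposite sign on the mediolateral arrays. At HH30 its intensity was 852 for the Cy5 pool against 1572 for the Cy3 pool. At HH35 it was 3139 for the Cy5 pool against 2243 for the Cy3 pool. The log2 ratio was -0.88 at HH30, 1.84-fold higher in the Cy3 pool and rank 42 from the lowest, and 0.37 at HH35, 1.29-fold higher in the Cy5 pool. The limma mean over both, -0.26 ± 0.23, did not pass (adjusted p = 0.818), and its SE is likewise not the spread of these 2 values.

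Along the anteroposterior axis MSX2 was on the posterior side at both stages. Its intensity was 432 in the posterior pool and 403 in the anterior pool at HH35, and 213 in the posterior pool and 192 in the anterior pool at HH37. After normalisation these are log2 ratios of 0.42 and 0.53, or 1.34-fold and 1.45-fold higher in the posterior pool. The unnormalised intensities were close to even, and with median centring in place of loess both ratios were 0.18. At HH35, 20.2% of measured probes had a ratio as far from 0, and the limma mean of 0.48 ± 0.23 did not pass (adjusted p = 0.233).

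BMP4, a BMP ligand of the dorsal midline and ectoderm, stood on the posterior side at HH35 with 277 in the posterior pool and 240 in the anterior pool. At HH37 it had 1074 in the posterior pool and 1225 in the anterior pool. The mediolateral intensities were 404 for the Cy5 pool against 437 for the Cy3 pool at HH30, and 1158 for the Cy5 pool against 875 for the Cy3 pool at HH35. BMP4 was measured in both channels of every array.

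The log2 ratios of BMP4 were 0.42 at HH35 and 0.12 at HH37 on the anteroposterior arrays, and -0.10 at HH30 and 0.40 at HH35 on the mediolateral arrays. The HH37 value turned to -0.14 with median centring. On the anteroposterior array at HH35 it was 0.25 with median centring, 0.55 with plain subtraction and 0.57 in the series' value table. None was past 2-fold, and 11.8% of measured probes lay as far from 0 on the mediolateral array at HH35. The limma mean was 0.27 ± 0.16 on the anteroposterior axis (adjusted p = 0.335) and 0.15 ± 0.16 on the mediolateral axis (adjusted p = 0.860).

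BMP7, a second BMP ligand that can pair with BMP4 in a heterodimer, lay close to its background. On the anteroposterior arrays its intensity was 181 in the posterior pool and 212 in the anterior pool at HH35, and 88 in the posterior pool and 48 in the anterior pool at HH37. Neither channel at HH37 was well above background, so no ratio is given for that array. On the mediolateral arrays it was 139 in both pools at HH30, and 65 for the Cy5 pool, not well above background, against 76 for the Cy3 pool at HH35.

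The measured log2 ratios of BMP7 were 0.00 on the anteroposterior array at HH35, -0.07 on the mediolateral array at HH30 and -0.39 on the mediolateral array at HH35, where the bound on the fold was under 1 and none is given. The limma mean on the mediolateral axis was -0.23 ± 0.18 (adjusted p = 0.787), and that on the anteroposterior axis, which takes in the unmeasured HH37 spot, was 0.33 ± 0.18 (adjusted p = 0.269). In the authors' deposited table the anterior over posterior ratio of BMP7 at HH37 was 0.0910, the value furthest from 1 among those of the 5 genes, and it belongs to the spot that stood above background in neither channel.

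**Figure D2:**
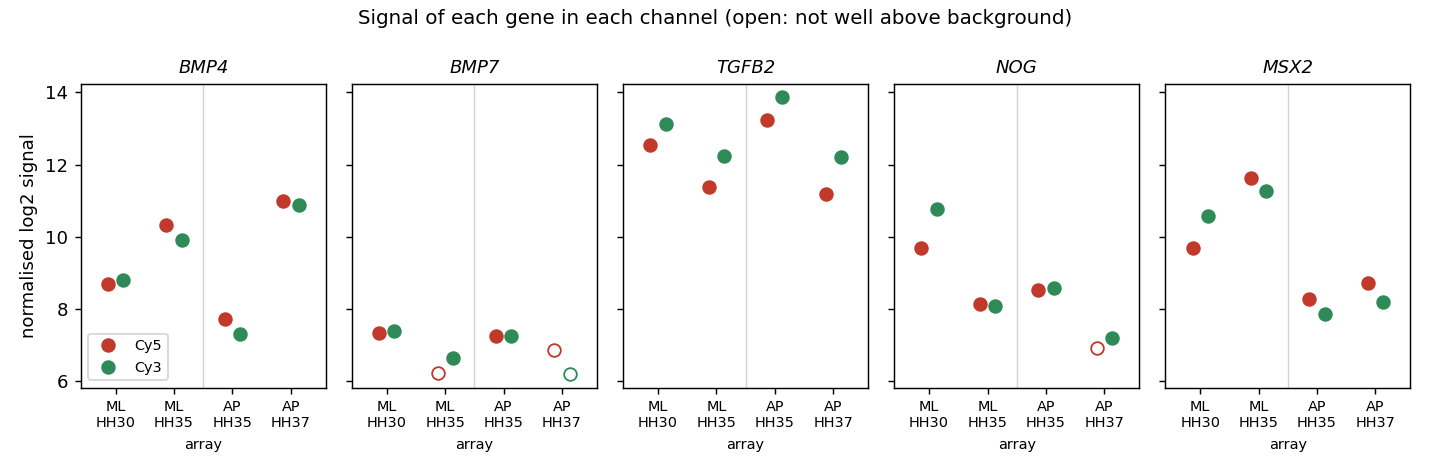
Normalised log2 signal (y axis) of each gene in the Cy5 and Cy3 channels of each array (x axis), with open symbols for a channel that was not well above background. The mean of both channels for MSX2 is 8.06 and 8.46 on the anteroposterior arrays at HH35 and HH37 and 10.14 and 11.45 on the mediolateral arrays at HH30 and HH35, and BMP7 stays at 7.36 or lower.

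The level of each gene over both channels, a log2 signal after quantile normalisation of brightness between arrays, was ordered over the arrays as follows. MSX2 was highest on the mediolateral array at HH35 at 11.45, then on that at HH30 at 10.14, then on the anteroposterior arrays at HH37 and HH35 at 8.46 and 8.06. Between the anteroposterior arrays its intensities, not normalised, ran the other way. They were 213 and 192 at HH37 against 432 and 403 at HH35, so the order given rests on the normalisation. NOG had its highest level, 10.2, on the mediolateral array at HH30 and its lowest, 7.05, on the anteroposterior array at HH37, with 8.55 and 8.10 on the anteroposterior and mediolateral arrays at HH35. The 2 HH35 levels of NOG lie closer than the SD of 1.18 by which probes differ between these arrays.

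BMP4 was highest on the anteroposterior array at HH37 at 10.93, followed by the mediolateral arrays at HH35 and HH30 at 10.12 and 8.75 and the anteroposterior array at HH35 at 7.51. TGFB2 lay between 11.7 at HH37 and 13.5 at HH35 on the anteroposterior arrays. BMP7 lay between 6.43 and 7.36 on the 4 arrays. The levels of MSX2 and BMP4 at the shared stage HH35 differed by 3.40 and 2.61 on the log2 scale, both higher on the mediolateral array, and 1.24% and 4.16% of probes differed by as much.

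Between the mediolateral stages, the ratios of MSX2 and NOG differed in the same direction. The log2 ratio of MSX2 at HH35 was 1.25 above that at HH30, a 2.39-fold difference of the ratio, and that of NOG was 1.11 above, a 2.17-fold difference. Among 26388 probes measured on both arrays these differences ranked 7 and 12 from the highest. With 1 array per stage there is no test of them. Both members were past 2-fold, 2 of 5, where 0.568% of probes were, with 0.102% of probes past it upward. As the members were chosen with earlier results of these data known, this count does not test the set.

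BMP4 was 0.50 higher at HH35 in log2 ratio, rank 1075 from the highest. The difference was -0.26 for TGFB2, which 36.2% of probes reached either way, and -0.32 for BMP7, which ran to -1.11 in the value table. The sign of MSX2, NOG and BMP4 was negative at HH30 and positive at HH35, as it was in 18.9% of all probes. BMP4 at HH30, at -0.10, is within the spread of control spots on that array, 0.14. NOG at HH35 is within the spread of control spots, and it turned to -0.06 with median centring and to -0.01 in the series' value table. Over the alternative settings the difference of MSX2 ranged from 1.25 to 1.44 and that of NOG from 1.08 to 1.23.

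**Figure D3:**
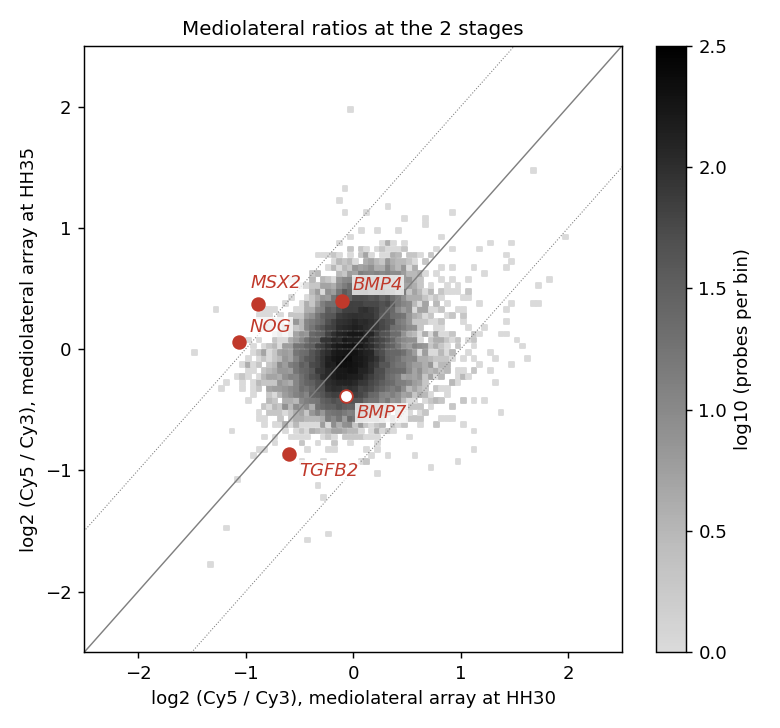
Log2 ratio of Cy5 over Cy3 on the mediolateral array at HH30 (x axis) and HH35 (y axis), with the density of 26388 measured probes in grey on a log10 scale and the 5 genes in red. MSX2 and NOG lie beyond the upper dotted line, which marks a 2-fold change between stages, and BMP4, BMP7 (open, 1 channel not well above background at HH35) and TGFB2 lie between the dotted lines.

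Some markers of other tissue also differed between the pools of the mediolateral array at HH30. Of the meninges and mesenchyme list 10 of 13 genes had a probe and all 10 were measured there. Of these 8 were lower in the Cy5 pool, as were 52.9% of all measured probes on that array. The 10 ratios ran from -0.57 for the collagen gene COL1A2 to 0.11, with a median of -0.12. That median is within the spread of control spots on the array, 0.14. ACTA2, FOXD1 and POSTN, which count among the lower genes, were at -0.01, -0.04 and -0.05. The summed intensity of the list, not normalised, was 33658 for the Cy5 pool against 38592 for the Cy3 pool. On the mediolateral array at HH35 the median ratio was 0.02, and the sums were 13781 for the Cy5 pool against 10415 for the Cy3 pool. Single genes weigh heavily in these sums. COL1A2 had 17365 for the Cy5 pool against 21975 for the Cy3 pool at HH30. The transcription factor gene TWIST1 had 8442 for the Cy5 pool against 5668 for the Cy3 pool at HH35. The share of this tissue in the ratios of NOG and MSX2 was not tested.

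Of the roof plate and dorsal midline list 5 of 12 genes had a probe. WNT3A, a Wnt ligand of the dorsal midline, had a log2 ratio of -1.13 at HH30 and -0.69 at HH35 on the mediolateral arrays, lower in the Cy5 pool at both, while the other 3 measured genes of the list were above 0 at HH30. All 6 genes of the tectal and midbrain list with a probe were measured on every array. On the mediolateral arrays 5 were lower and 1 higher in Cy5 at HH30, from -0.84 for PAX7 to 1.95 for PAX2, and 4 lower and 2 higher at HH35, from -0.21 to 0.93 for the same pair. Of all measured probes, 52.9% were lower in Cy5 at HH30 and 53.0% at HH35. TTR, which marks choroid plexus, did not stand well above background in any channel.

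Between the anteroposterior stages no member measured on both arrays passed 2-fold, 0 of 4, where 1.92% of probes did. The log2 ratio at HH37 minus that at HH35 was -0.39 for TGFB2, -0.30 for BMP4, -0.19 for NOG and 0.12 for MSX2. The sign turned for TGFB2 in the value table, at 0.01, and for NOG at 0.04 and MSX2 at -0.0004 with median centring. The difference between the axes was not past the threshold for any of the 5 members in limma, as for 0% of all probes, while 2 of 5, MSX2 and BMP7, had an unadjusted p under 0.05, as did 8.33% of probes. The BMP7 value rests on the unmeasured HH37 spot, and without that array it was 0.23 (limma, adjusted p = 0.764), against 0.56 with it. For MSX2 that difference was 0.73 ± 0.32 (limma, adjusted p = 0.578) and for NOG 0.33 ± 0.30 (limma, adjusted p = 0.867). Without the mediolateral array at HH30 they were 0.11 and -0.23, and without that at HH35 1.36 and 0.89.

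On single anteroposterior arrays, 0 of 5 members were past 2-fold at HH35, where 0.781% of probes were, and 1 of 4 measured members, TGFB2, at HH37, where 1.87% were, 1.78% as lower in the posterior pool. With plain subtraction TGFB2 was at -0.92 there and no longer past it, and in the value table TGFB2 was at -0.78 and MSX2, at 1.03, was past it. TGFB2 and NOG were below 0 on both anteroposterior arrays, as were 35.5% of probes measured on both. No member was past 2-fold on the mediolateral array at HH35, where 0.094% of probes were, but BMP7 with its dim channel was at -1.08 with plain subtraction and -1.37 in the value table. Neuronal genes were lower in the posterior pool than in the anterior pool, 9 of 9 measured at HH35 with a median of -0.53 and 8 of 8 at HH37 with a smallest value of -1.63 and a largest of -0.67. They were also lower in the Cy5 pool in 9 of 9 cases on the mediolateral array at HH35, with a median of -0.39, and higher in 8 of 9 on that at HH30. Of all measured probes, 52.0% and 53.2% were below 0 on the anteroposterior arrays at HH35 and HH37. On the mediolateral arrays at HH35 and HH30, 53.0% and 52.9% were. The part of neurons in the ratio of TGFB2 was not tested.

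The genes whose 4 ratios were nearest to those of each member, by Euclidean distance over the 4 arrays among 5337 genes measured on all of them, included the following. For TGFB2 they were the fibroblast growth factor receptor FGFR3 at a distance of 0.31, LHFPL1 at 0.33 and the Rac-regulating protein gene CHN1 at 0.37. FGFR3 had log2 ratios of -0.56 and -0.89 on the anteroposterior arrays at HH35 and HH37 and -0.42 and -0.66 on the mediolateral arrays at HH30 and HH35. For MSX2 they included BPIFB2 at 0.57 and DISP3 at 0.57.

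For NOG the nearest were the carnitine transporter SLC22A5 at 0.29, the secreted Wnt modulator SFRP2 at 0.45 and the keratin KRT24 at 0.47. For BMP4, whose ratios are small, they included WDR59 at 0.13 and the endothelin gene EDN1 at 0.14. BMP7 was not measured on all 4 arrays and was left out.

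The rest of the pathway was read from a list of 102 genes, of which 66 had a probe paired with their symbol and 59 were tested. Taking the brightest probe per gene, 0 of 59 passed in limma on the anteroposterior axis, with 12 at an unadjusted p under 0.05, and 0 of 59 on the mediolateral axis, with 3 at an unadjusted p under 0.05. Over all probes the unadjusted share was 23.5% and 7.61%. The median of the means was -0.10 on the anteroposterior axis and -0.06 on the mediolateral axis, beside -0.02 and -0.01 over all probes tested. Of the 59, 19 had an anteroposterior mean above 0 and 40 below. Over all probes tested 52.1% had an anteroposterior mean below 0 and 52.4% a mediolateral one, and these counts of signs, here and by role, were not tested. Listed genes without a named probe, or with none measured on 2 arrays, were not analysed here.

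Among the BMP ligands, 7 genes were tested and 5 had an anteroposterior mean above 0. GDF3 and GDF2 had the highest mediolateral means of the list. GDF3, a ligand of the BMP and GDF group, had ratios of 0.49 at HH30 and 0.68 at HH35 and a limma mean of 0.58 ± 0.14 (adjusted p = 0.453). GDF2, also known as BMP9, had a mean of 0.28 ± 0.15 (limma, adjusted p = 0.707). Neither passed.

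Among the other ligands TGFB3, the sister ligand of TGFB2, had ratios of -0.25 and -0.82 on the anteroposterior arrays at HH35 and HH37, with a limma mean of -0.54 ± 0.17 (adjusted p = 0.101). On the mediolateral arrays TGFB3 was at 0.17 at HH30 and -0.27 at HH35, where TGFB2 was at -0.60 and -0.86. Of the 5 genes tested in this role, none passed in limma, and 1 had an unadjusted p under 0.05 on the anteroposterior axis.

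Of the secreted antagonists and processing genes, 14 were tested and 9 had an anteroposterior mean below 0. FSTL4, a follistatin-like gene, was highest with ratios of 0.37 and 0.52 and a limma mean of 0.44 ± 0.14 (adjusted p = 0.0968). Of 11 receptors and co-receptors 10 had a mean below 0. RGMA, a BMP co-receptor that is also a guidance molecule for retinal axons, was at 0.28 at HH35 and at -1.05 at HH37, where it was past 2-fold towards the anterior pool.

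Of 16 SMADs and regulators, 13 had an anteroposterior mean below 0 and 13 a mediolateral mean below 0. By array, 8 of 16 were below 0 on the anteroposterior array at HH35 and 9 of 16 on the mediolateral array at HH30. The count was 13 of 15 on the anteroposterior array at HH37 and 14 of 16 on the mediolateral array at HH35. Those last 2 arrays are the pair whose ratios correlated most. The kinase gene MAP3K7, which acts downstream of TGF-beta and BMP receptors, had 3 probes that disagreed. Its brightest probe had an anteroposterior limma mean of -0.51 (adjusted p = 0.0720), another passed at -0.72 (adjusted p = 0.0328 in limma), and the third was at 0.30 (adjusted p = 0.307 in limma). ZNF423, a zinc finger partner of SMADs, had a mediolateral mean of -0.38 on its brighter probe and -0.17 on the other.

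Of the target genes 6 were tested. PMEPA1, a TGF-beta target that dampens SMAD signalling, was lower in Cy5 on all 4 arrays, as were 16.8% of probes measured on all 4. Its ratios were -0.31 and -0.73 on the anteroposterior arrays at HH35 and HH37 and -0.55 and -0.49 on the mediolateral arrays at HH30 and HH35. Listed genes of other roles, such as BMPR2, SMAD6 and SOSTDC1, were also below 0 on all 4 arrays. None of the other tested target genes was, and TGFBI stood at 0.33 on the anteroposterior array at HH35. The limma mean of PMEPA1 was -0.52 on both axes (adjusted p = 0.0795 on the anteroposterior axis), and it did not pass. CCN2, a matricellular protein gene, was at -1.25 on the anteroposterior array at HH35, past 2-fold towards the anterior pool, with an axis mean of -0.54 (limma, adjusted p = 0.218) that includes an HH37 spot with 1 dim channel. ID3, a helix-loop-helix inhibitor induced by BMPs, was at 0.95 at HH35 and 0.14 at HH37, and had a limma mean of 0.54 (adjusted p = 0.118).

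**Figure D4:**
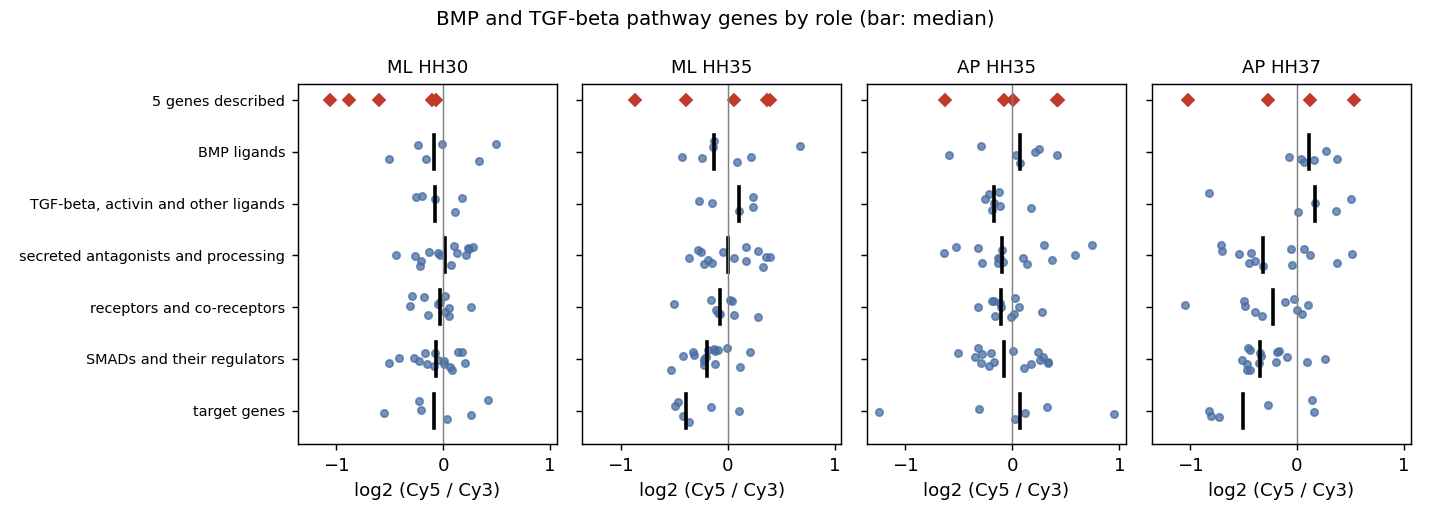
Log2 ratio of Cy5 over Cy3 (x axis) of each measured pathway gene on each array, in rows by role, with genes as blue points and their median as a black bar. Red diamonds in the top row are the 5 genes described, without BMP7 on the anteroposterior array at HH37. On the anteroposterior array at HH37, 13 of 15 SMADs and regulators lie below 0, beside 53.2% of all measured probes. On the anteroposterior array at HH35, 8 of 16 do. No gene of the pathway list is past 2-fold on a mediolateral array. Of all measured probes, 0.326% are past it on the mediolateral array at HH30 and 0.094% on that at HH35.

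**Figure D5:**
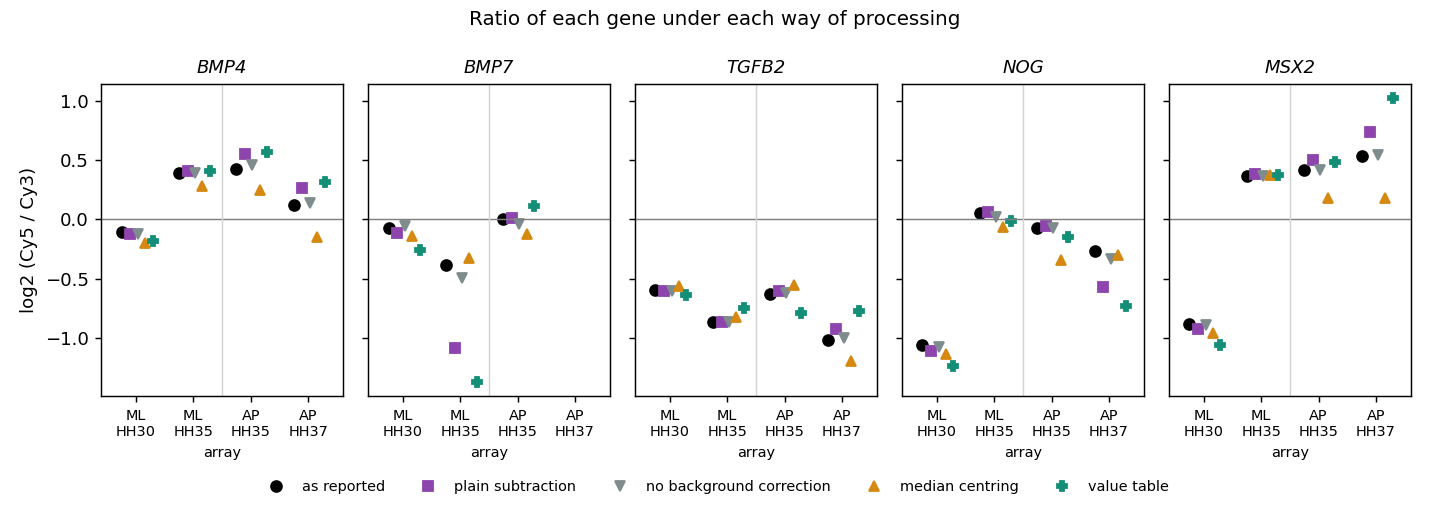
Log2 ratio of Cy5 over Cy3 (y axis) of each of the 5 genes on each array (x axis) under each way of processing, one symbol per way, with BMP7 left out on the anteroposterior array at HH37. The values of TGFB2 stay between -0.55 and -1.20, and those of MSX2 on the mediolateral array at HH30 between -0.88 and -1.06.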

How the data were processed

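Total RNA of pooled tectal pieces was compared on 4 two-colour arrays, 1 per axis and stage. The deposited spot tables give each spot's intensity per channel, not normalised, and the percent of saturated pixels, per the file headers. The submitters' processing notes name Agilent Feature Extraction, whose settings the sources used here do not give. The column names of the spot tables are of the GenePix type instead. Which program gave the intensities is therefore not settled. The authors' deposited table holds a ratio per probe, and the deposited value table is its log2. Both were found to run against Cy5 over Cy3, so the value table was turned for use as an alternative. It then correlated with the ratios computed here at r = 0.724 to 0.848, with medians of 0, -0.13, 0 and -0.02.

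In limma 3.58.1 under R 4.3.3, background was corrected by normexp (offset 50) on mean foreground and median background, and ratios were normalised by loess (span 0.3, control spots at weight 0). For levels and brightness only, the mean log2 signal of both channels was then quantile normalised between arrays (Aquantile). That step leaves the ratios unchanged. The limma fit took 31760 probes measured on at least 2 of 4 arrays, with 1 coefficient per axis, 2 residual degrees of freedom and Benjamini-Hochberg adjusted p at 0.05. Stage differences are its residual, pooled over both axes. The variance of each probe was moderated by empirical Bayes, which draws it towards that of all probes. The SEs and p-values thus rest partly on all probes and do not measure the spread of 1 gene between the arrays of an axis. The code of the fit was tested on simulated data. Symbols came from the files and from a chicken gene table (GRCg7b) that served for names alone, as the files state no build, and 7660 probes carry 1. A bound is given where 1 channel is dim. Each member has 1 probe, and a listed gene is represented by its brightest. Named pathway genes are those called, past 2-fold, or with the 2 highest or lowest means per axis. The genes, lists and tests were chosen with earlier results of these data known. Some of the genes nearest to a member in ratio are not reported here. Alternatives changed background, normalisation, values, filter, probes, variance model or arrays.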

Additional observations from a re-analysis of the deposited data

Results flagged for a closer look

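MSX2 had opposite signs on the 2 mediolateral arrays. Its log2 ratio of Cy5 over Cy3 was 0.37 at HH35 and -0.88 at HH30, a difference of 1.25 that was not tested because each stage is 1 array. Its mean level was also higher on the HH35 array, at 11.45 against 10.14 at HH30 in normalised log2 signal, and 25.7% of probes differed as much in level between these arrays.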

How the results depend on the processing

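No paired analysis was possible because each group is 1 array, so the groups share only replicate number 1 and no fit with a block can be made. Of 174 limma means of the 5 genes under alternatives, 163 kept their sign and side of the threshold, 3 (TGFB2, anteroposterior) lost the call and 8, none of them called, turned sign. The 8 arose on leaving out 1 array, which gave mediolateral means of -1.06 to 0.055 for NOG, -0.88 to 0.37 for MSX2 and -0.10 to 0.40 for BMP4, and differences between the axes of -0.23 to 0.89 for NOG, -0.29 to 0.10 for TGFB2 and -0.13 to 0.37 for BMP4. Of 186 ratios and stage differences 32 moved by more than the spread of control spots, and 8 turned sign, all of them under 2-fold. A change of filter or probes alone could not move a mean or ratio of these genes, nor could the variance model move a mean. Leaving out an array of 1 axis could not move the mean of the other. Signs kept in those settings were fixed in advance. The count of 943 anteroposterior calls was 0 with plain subtraction, 0 with the value table, 4623 with median centring, 501 without the filter, and 455 to 1555 leaving out 1 array. The 2 mediolateral calls were 0 with plain subtraction, 0 with the value table, 4 with the trended robust variance, and 2 to 20 leaving out 1 array. The contrast gave 0 to 40. The counts past 2-fold under plain subtraction, median centring, the value table and both channels above background were 708, 739, 1113 and 117 for 261 on the anteroposterior array at HH35. At HH37, for 498, the first 3 gave 1151, 1997 and 2386. On the mediolateral array at HH30, for 96, plain subtraction gave 400, the authors' values 926 and both channels 55, and at HH35, for 28, they gave 200, 742 and 14. The counts with both channels above background are out of 14465 probes. The main counts are out of 33402 on the anteroposterior array at HH35, and 29467 and 29783 on the mediolateral arrays at HH30 and HH35. The fit without the filter tested 42034 probes, against 31760. These counts therefore do not compare as shares. Differences between stages past 2-fold were 623 with plain subtraction and 1367 with the value table for 150 mediolateral ones, and 1202, 953 with median centring and 2378 for 489 anteroposterior ones. Of the probes past 2-fold at HH30, 18.8% were lower in Cy5, against 51.8% with plain subtraction, 32.3% with median centring and 70.9% with the value table. On the anteroposterior array at HH37 the share lower in Cy5 was 95.0%, against 75.2% in the value table. Of the mediolateral differences between stages 27 were upward and 123 downward, against 255 and 368 with plain subtraction and 694 and 673 in the value table. The causes were not tested. Where an axis keeps 1 array, that array is assumed to vary like the other axis. Dim spots limit BMP7 and NOG at HH37.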

Other observations

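Other marker lists moved with the anteroposterior arrays. Neural progenitor genes were higher in the posterior than in the anterior pool for 5 of 6 at HH35 (median 0.53) and lower for 4 of 5 at HH37 (median -0.40). Of all measured probes, 52.0% were lower in the posterior pool at HH35 and 53.2% at HH37. PAX6, a transcription factor of progenitors, stood at 0.82 at HH35 and -0.58 at HH37. On the mediolateral arrays the median of this list was -0.08 at HH30 and -0.09 at HH35. The ratios ran from -0.70 for HES5 to 1.40 for PAX6 at HH30, and from -0.48 to 0.12 at HH35. Endothelial genes had medians between -0.16 and 0.16 on the 4 arrays. Of 3 blood genes with a probe, 2 were lower in the posterior than in the anterior pool at HH37 (median -1.33), and on the mediolateral arrays all 3 were higher in Cy5 at HH30 (median 0.32) and 2 of 3 lower at HH35 (median -0.66).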
